A study of Homo sapiens with 4 samples.

Results

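The transcripts described here are those of 10 genes of the RB and E2F system, chosen by name: RB1, RBL1, RBL2, E2F1, E2F2, E2F3, E2F4, E2F7, E2F8 and TFDP1. They are 10 of 39323 genes in the deposited tables, and all 10 were among the 12985 genes that averaged 1 TPM or more and were tested. TPM (the number of transcripts of a gene among a fixed total) is a share of the library corrected for transcript length, so levels of different genes can be set side by side. RNA was sequenced from RD and JR1, established human lines of fusion-negative rhabdomyosarcoma, a muscle-lineage tumor without a PAX-FOXO1 fusion. Both lines carry mutated p53, per the study. Each line had been infected with a puromycin-selectable lentivirus that expressed either 1 hairpin against SKP2 (shSKP2.2, here shSKP2) or a non-targeting hairpin (shSCR), so the control cells carry the vector as well. SKP2 is the substrate receptor of a ubiquitin ligase that marks cell cycle inhibitors for degradation. There was 1 library per line and condition, 4 in all, so no difference has a replicate check, no p-value is given, and the effect of 1 hairpin cannot be told apart from that of SKP2. Untransduced cells and other hairpins were not analysed here.

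The pocket proteins, pRB (encoded by RB1), p107 (RBL1) and p130 (RBL2), bind E2F transcription factors and recruit corepressors to the promoters of genes needed for S phase. Cyclin-dependent kinases phosphorylate the pocket proteins at the end of G1, the E2Fs are released, and E2F1, E2F2 and E2F3 then activate replication genes. E2F4 works mainly in repression, with p107 or p130 in quiescent and early G1 cells, while the atypical E2F7 and E2F8 repress late in S phase without a pocket protein or a DP partner. In muscle precursors, exit from the cell cycle and differentiation depend on pocket proteins. E2F1 and p130 have been described as substrates of the SKP2 ligase, but that is regulation of protein, and only RNA was measured here.

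The targeted transcript was lower in the knockdown libraries, with SKP2 at 92.8 TPM in RD shSCR, 7.40 in RD shSKP2, 46.5 in JR1 shSCR and 2.72 in JR1 shSKP2. Of 8 markers of the myogenic lineage 6 were at or above 1 TPM in all 4 libraries and MYF5 was listed at 0, while no epithelial, leukocyte or endothelial marker exceeded 0.16 TPM. The myogenic markers summed to 412 TPM in RD shSCR, 572 in RD shSKP2, 555 in JR1 shSCR and 779 in JR1 shSKP2. CHRNA1 held the largest part of this sum, at 196, 314, 284 and 425 TPM in the same order. The markers did not all move the same way. PAX7 was lower after knockdown in both lines, at 10.75, 3.36, 4.84 and 1.16 TPM, and DES was lower in JR1 only. The other markers above 0 TPM were higher after knockdown in both lines. Short structural RNA genes (7SL, 7SK, small nuclear, small nucleolar and related RNAs) held 58.6% of all TPM in RD shSCR, 69.1% in RD shSKP2, 66.5% in JR1 shSCR and 72.1% in JR1 shSKP2. A larger share for these genes leaves less for all others, and over all tested genes the median log2 change was -0.27 on knockdown in RD and -0.21 in JR1, and 0.23 for RD over JR1 in control cells and 0.17 after knockdown. Changes are therefore given as log2 of the ratio of TPM + 1, then in brackets after this median was subtracted (centred) and after removal of the structural RNA genes and scaling of the rest to the former total (rescaled). A transcript is said to have risen or fallen only where the deposited values differed by at least 1 on this scale, and the added 1 understates differences of genes with few TPM. When rescaled, the median of all tested genes was not 0 either. It was 0.12 on knockdown in RD and 0.01 in JR1, and -0.04 for RD over JR1 in control cells and 0.06 after knockdown.

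Several of these genes are themselves known targets of E2F, so their promoters were read in RefSeq (GRCh38.p14) for the words TTTCCCGC, TTTCGCGC, TTTGGCGC and TTTGCCGC on both strands, from 250 bases before to 50 bases after the transcript start. A window at the gene's start was found for 8 members, and 5 of the 8 held at least 1 word, against 6.88% of 10090 tested genes with a window and 3.31% of all 35116 windows. RBL1 and E2F1 held 2 words each, which 0.33% of the tested genes did. The words lay upstream of the start in all 5. The 60 bases that hold the words in these members are printed, with the words in capitals (a word on the other strand appears as its reverse complement), and, for contrast, the 60 bases before the start of RBL2, the member with the largest knockdown change, in which none was found. They come from the gene's own strand, 5′ to 3′, at chr20:37095998-37096057 (minus strand) for RBL1, chr20:33686386-33686445 (minus) for E2F1, chr1:23531234-23531293 (minus) for E2F2, chr6:20401819-20401878 (plus) for E2F3, chr13:113584623-113584682 (plus) for TFDP1 and chr16:53434411-53434470 (plus) for RBL2.
RBL1: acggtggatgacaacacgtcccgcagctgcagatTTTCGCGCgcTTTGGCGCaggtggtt
E2F1: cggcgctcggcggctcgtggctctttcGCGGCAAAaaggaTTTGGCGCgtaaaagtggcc
E2F2: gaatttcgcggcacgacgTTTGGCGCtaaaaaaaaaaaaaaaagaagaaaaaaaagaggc
E2F3: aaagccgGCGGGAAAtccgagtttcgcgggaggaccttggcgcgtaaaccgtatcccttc
TFDP1: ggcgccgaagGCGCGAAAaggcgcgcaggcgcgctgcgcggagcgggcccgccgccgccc
RBL2: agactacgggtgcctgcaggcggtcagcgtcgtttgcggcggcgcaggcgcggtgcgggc

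In RBL1 the words TTTCGCGC and TTTGGCGC ended 19 and 9 bases before the start, and in E2F1 TTTGCCGC on the opposite strand and TTTGGCGC ended 26 and 13 bases before it. The word of E2F2 ended 35 bases before the start, that of E2F3 46 bases and that of TFDP1 113 bases. No word was found in the windows of RBL2, E2F4 and E2F7, and E2F8 and the start of RB1 were not analysed here. A match of letters is a description and does not show that a factor is bound.

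Among the pocket proteins, RBL2 fell in both lines. RBL2 (chr16:53434471-53491648, GRCh38) was at 12.1 TPM in RD shSCR, 3.88 in RD shSKP2, 9.34 in JR1 shSCR and 3.60 in JR1 shSKP2. Both knockdown libraries lay below both control libraries, and after knockdown the lines were close to each other. The knockdown change was -1.43 in RD (centred -1.16, rescaled -1.16) and -1.17 in JR1 (centred -0.95, rescaled -1.05), so that centring ended the call in JR1. In RD 2.40% of the tested genes had a lower value than RBL2, and in JR1 6.09%. The end of RBL2 shares 609 bases with AKTIP on the other strand, which was at 4.01 and 1.63 TPM in RD and at 1.79 and 0.86 TPM in JR1 in control and knockdown libraries. Whether the counting used strand is not given in the sources used here, and the part of the overlap in the RBL2 values was not tested.

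RB1, the retinoblastoma tumor suppressor (chr13:48303751-48481890), was at 8.55 TPM in RD shSCR, 4.33 in RD shSKP2, 4.67 in JR1 shSCR and 3.25 in JR1 shSKP2. The RD control stood above the other 3 libraries, which lay close together. Its knockdown values were -0.84 in RD (centred -0.57, rescaled -0.53) and -0.42 in JR1 (centred -0.20, rescaled -0.24), short of the limit in both lines. LPAR6, a receptor gene inside an intron of RB1, was at 2.83, 2.56, 4.15 and 2.77 TPM in the same order, a different pattern from that of its host.

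RBL1, which is known to be transcribed in S phase under E2F control (chr20:36996349-37096029), was at 6.88 TPM in RD shSCR, 4.77 in RD shSKP2, 2.16 in JR1 shSCR and 2.56 in JR1 shSKP2. Both RD libraries were above both JR1 libraries, and within a line the values were nearer to each other than between lines. The knockdown value was -0.45 in RD (centred -0.18, rescaled -0.10) and 0.17 in JR1 (centred 0.39, rescaled 0.45), of opposite sign in the lines under each of these scalings. In these bulk libraries, fewer cells in a given phase of the cycle and less RNA per cell cannot be told apart.

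**Figure D1:**
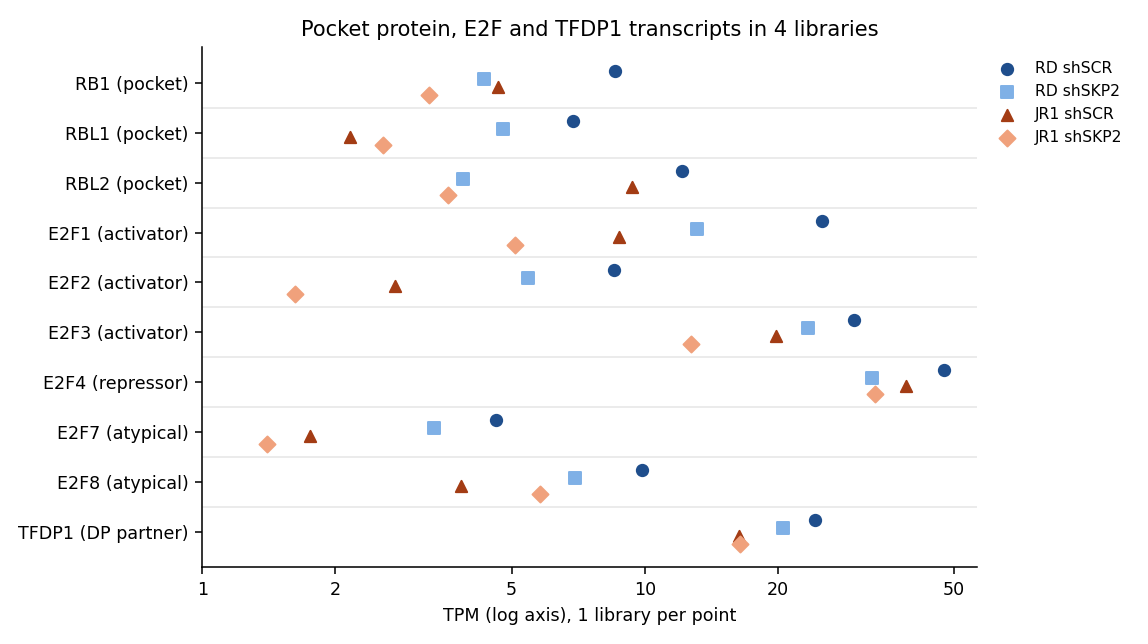
TPM of the 10 transcripts (log axis, 1 point per library) in RD shSCR, RD shSKP2, JR1 shSCR and JR1 shSKP2, with the role of each product in brackets. E2F4 is highest in every library, from 32.7 to 47.4 TPM, E2F7 is lowest, from 1.40 to 4.62 TPM, and for RBL2 both knockdown points lie to the left of both control points.

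The activator E2Fs were lower on knockdown in both lines (E2F3 in RD turned to 0.07 when rescaled), but none reached the limit. E2F1, the activator most often linked to both S phase entry and apoptosis (chr20:33675477-33686385), was at 25.2 TPM in RD shSCR, 13.1 in RD shSKP2, 8.75 in JR1 shSCR and 5.08 in JR1 shSKP2. The RD knockdown library still held more E2F1 than the JR1 control. Its knockdown values were -0.89 in RD (centred -0.62, rescaled -0.51) and -0.68 in JR1 (centred -0.47, rescaled -0.50), and 10.1% and 19.0% of tested genes had lower values. E2F2 (chr1:23505696-23531250) was at 8.50 TPM in RD shSCR, 5.46 in RD shSKP2, 2.73 in JR1 shSCR and 1.62 in JR1 shSKP2. It showed the same order of libraries as E2F1 at a lower level, with knockdown values of -0.56 in RD (centred -0.29, rescaled -0.21) and -0.51 in JR1 (centred -0.30, rescaled -0.43). Of the tested genes 25.0% had lower values than E2F2 in RD and 27.5% in JR1.

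E2F3 (chr6:20401879-20493714) was the most abundant activator transcript in every library, at 29.8 TPM in RD shSCR, 23.3 in RD shSKP2, 19.8 in JR1 shSCR and 12.7 in JR1 shSKP2. Again both RD libraries were above both JR1 libraries. With deposited TPM, E2F3 was the only activator with the lower knockdown value in JR1, -0.60 (centred -0.39, rescaled -0.37), against -0.34 in RD (centred -0.07), and in RD its sign turned to 0.07 when rescaled. The gene makes a long and a short isoform from separate promoters, which values per gene do not separate.

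E2F4, the main partner of p107 and p130 (chr16:67192155-67198918), was the highest of the 10 transcripts in all 4 libraries, at 47.4 TPM in RD shSCR, 32.7 in RD shSKP2, 38.9 in JR1 shSCR and 33.1 in JR1 shSKP2. Its levels were the most even of the E2F transcripts, and the knockdown libraries of the 2 lines were nearly equal. The knockdown values were -0.52 in RD (centred -0.25, rescaled -0.11) and -0.23 in JR1 (centred -0.01), and the JR1 value turned to 0.03 when rescaled.

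The atypical repressors E2F7 and E2F8 stood apart from each other in JR1. E2F7 (chr12:77021251-77065580), the least abundant of the 10, was at 4.62 TPM in RD shSCR, 3.34 in RD shSKP2, 1.75 in JR1 shSCR and 1.40 in JR1 shSKP2. E2F8 (chr11:19224063-19241655) was at 9.86 TPM in RD shSCR, 6.95 in RD shSKP2, 3.85 in JR1 shSCR and 5.79 in JR1 shSKP2. In JR1 the E2F8 level was thus higher in the knockdown library than in the control, and in RD it was lower. E2F7 had knockdown values of -0.37 in RD (centred -0.10, rescaled -0.04) and -0.20 in JR1, where the sign turned to 0.02 when centred and stayed at -0.05 when rescaled. E2F8 had -0.45 in RD (centred -0.18, rescaled -0.08) and 0.49 in JR1 (centred 0.70, rescaled 0.80), with 93.0% of the tested genes below it in JR1. The JR1 value minus the RD value was 0.94 for E2F8, and 1.43% of the tested genes had a difference at least as large. For RBL1 this difference was 0.62, reached by 4.96% of the tested genes.

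TFDP1, which encodes the DP1 subunit that E2F1 to E2F6 need to bind DNA (chr13:113584688-113641473), was at 24.3 TPM in RD shSCR, 20.5 in RD shSKP2, 16.3 in JR1 shSCR and 16.4 in JR1 shSKP2. With deposited TPM it had the smallest knockdown values of the 10, -0.23 in RD, which turned to 0.04 when centred and 0.18 when rescaled, and 0.01 in JR1 (centred 0.22, rescaled 0.27). TFDP2, which encodes the other DP partner, was at 14.2, 18.5, 10.5 and 15.4 TPM in the same order, higher in both knockdown libraries. The ratio of TFDP1 to TFDP2 was therefore 1.71 in RD shSCR and 1.11 in RD shSKP2, and 1.55 in JR1 shSCR and 1.07 in JR1 shSKP2.

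Counted together, 1 of 10 members (RBL2) fell and 0 rose on knockdown in RD, where 7.37% of the tested genes fell and 1.08% rose. In JR1 1 of 10 (RBL2) fell and 0 rose, against 9.05% and 1.78% of the tested genes. A share of 1 in 10 is near that background in both lines. All 10 members had values under 0 in RD, 9 when centred and 8 when rescaled, as did 75.0% of the tested genes with deposited TPM. In JR1 7 members were below 0 (6 when centred or rescaled), as were 68.9% of the tested genes. The median of the members was -0.49 in RD and -0.32 in JR1, beside -0.27 and -0.21 for all tested genes.

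**Figure D2:**
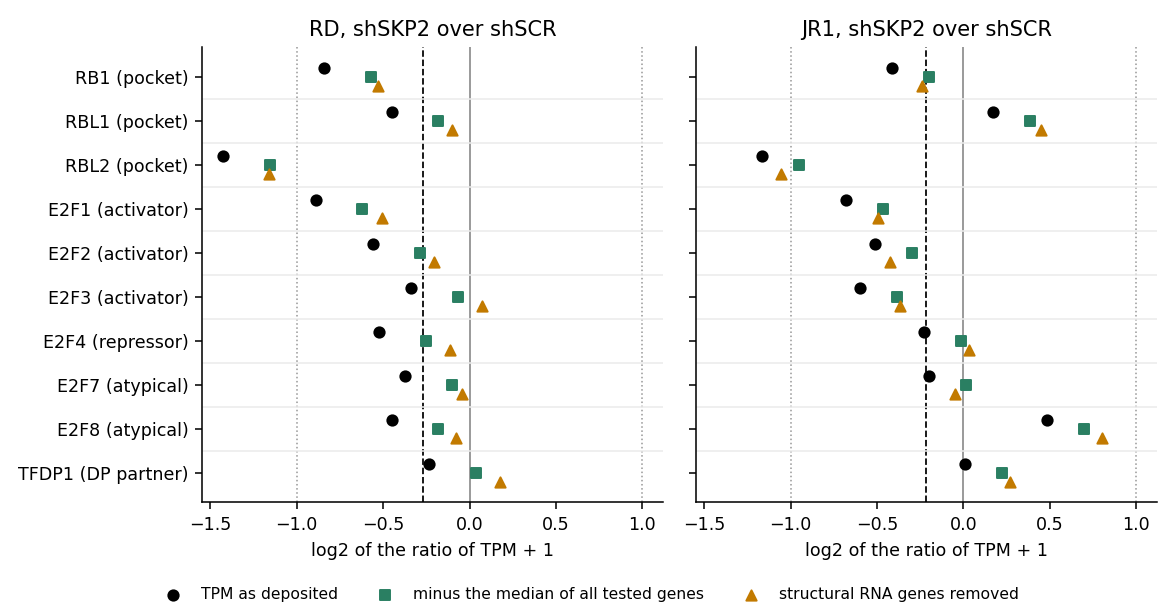
Log2 of the ratio of TPM + 1, shSKP2 over shSCR, for the 10 transcripts in RD (left) and JR1 (right), 1 library per condition, with deposited TPM (circles), after subtraction of the median of all tested genes (squares) and after removal of the structural RNA genes (triangles). Dotted lines mark the limit of 1 in either direction and the dashed line the median of all tested genes (-0.27 in RD, -0.21 in JR1), and RBL2 is the only circle beyond a limit in either panel.

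For E2F1, E2F2, RBL1, E2F7, E2F8 and TFDP1 the control lines differed by more than control and knockdown cells of either line did. For TFDP1 this did not hold when rescaled (0.265 between control lines, 0.268 on knockdown in JR1). In control cells all 10 members were higher in RD (9 of 10 when rescaled), and 5 of 10 (RBL1, E2F1, E2F2, E2F7 and E2F8) were higher by at least 1, where 6.5% of the tested genes were higher and 3.45% lower by as much. The largest differences were 1.43 for E2F1 (centred 1.20, rescaled 1.19), 1.35 for E2F2 (centred 1.12, rescaled 1.23) and 1.32 for RBL1 (centred 1.09, rescaled 1.24). E2F8 at 1.16 and E2F7 at 1.03 were below 1 after either correction (E2F8 centred 0.93, rescaled 0.99, and E2F7 0.80 and 0.97). RB1 (0.75), E2F3 (0.56), TFDP1 (0.55), RBL2 (0.34) and E2F4 (0.28) differed less, and E2F4 turned to -0.02 when rescaled. The median was 0.89 over the members and 0.23 over all tested genes.

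After knockdown, 2 of 10 members (E2F1 at 1.22 and E2F2 at 1.30) were still higher in RD by at least 1, beside 5.39% of the tested genes, and none was lower by as much, beside 2.7%. The line difference of E2F8 went from 1.16 in control cells to 0.23 after knockdown, that of RBL1 from 1.32 to 0.70 and that of RB1 from 0.75 to 0.33. E2F3 went the other way, from 0.56 to 0.83. E2F4 was nearly level between the lines at -0.02, and RBL2 was at 0.09, with its sign turned to -0.09 when centred and -0.04 when rescaled. The median over the members was 0.51, against 0.17 over all tested genes. Each comparison of the lines shares its libraries with a knockdown comparison, so the 4 sets of values are not separate measurements.

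**Figure D3:**
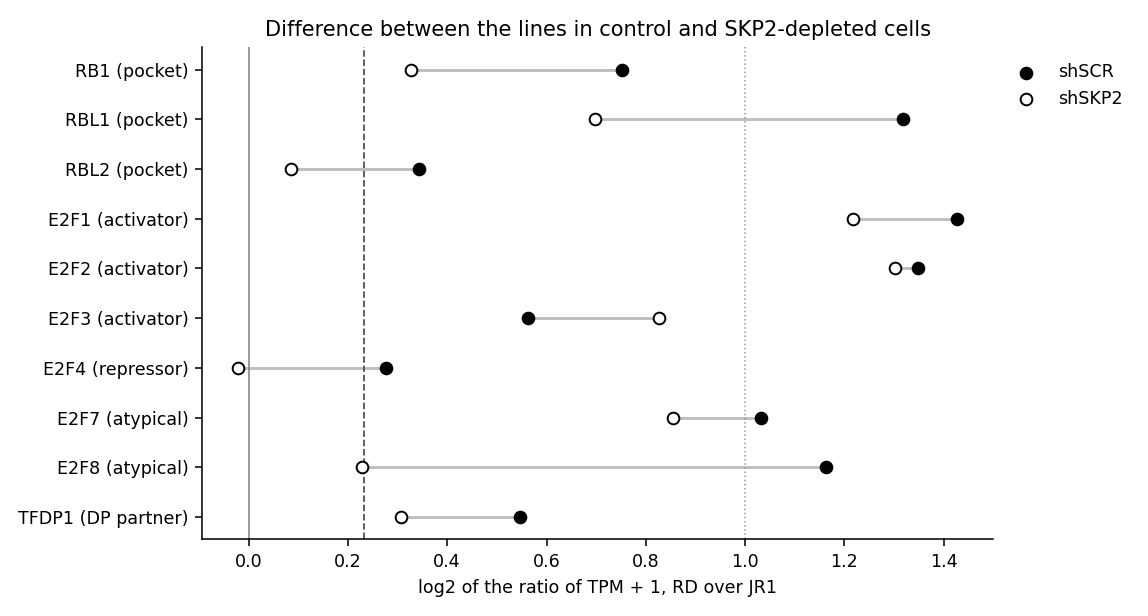
Log2 of the ratio of TPM + 1, RD over JR1, for the 10 transcripts in shSCR (filled) and shSKP2 (open) cells, 1 library each. The dotted line marks the limit of 1 and the dashed line the median of all tested genes in shSCR (0.23), and the open and filled points lie farthest apart for E2F8 (0.23 and 1.16) and nearest for E2F2 (1.30 and 1.35).

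Ratios within a library do not depend on the scaling, so activators were set against repressors in this way. Summed TPM of E2F1, E2F2 and E2F3 was 63.5 in RD shSCR, 41.9 in RD shSKP2, 31.3 in JR1 shSCR and 19.4 in JR1 shSKP2. Summed TPM of the atypical E2F7 and E2F8 was 14.5, 10.3, 5.60 and 7.19 in the same order. Activators were thus lower in both knockdown libraries, while the atypical pair was lower in RD and higher in JR1. The ratio of activators to atypical repressors was 4.38 in RD shSCR and 4.08 in RD shSKP2, a log2 change of -0.11. In JR1 it went from 5.59, the highest of the 4 libraries, to 2.70, the lowest, a log2 change of -1.05. That change was -1.28 when E2F8 alone stood for the repressors and -0.37 with E2F7 alone. On the log2 scale the activator sum changed by -0.69 and the atypical sum by 0.36 in JR1. In RD these changes were -0.60 and -0.49. Unlike the ratios, these changes of sums depend on the scaling, and they are from deposited TPM. The median of all tested genes with deposited TPM was -0.21 in JR1 and -0.27 in RD.

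Against E2F4 the activators made a ratio of 1.34 in RD shSCR, 1.28 in RD shSKP2, 0.804 in JR1 shSCR and 0.586 in JR1 shSKP2. RD held more activator than E2F4 transcript in both conditions, and JR1 held less in both. E2F4 made up 37.8% and 38.5% of the summed TPM of the E2F members in RD and 51.3% and 55.5% in JR1, in control and knockdown libraries. E2F8 made up 5.08% of this sum in JR1 shSCR and 9.69% in JR1 shSKP2, while in RD its share was 7.87% and 8.19%. E2F5 and E2F6 are not members and not in this sum. In RD shSCR, RD shSKP2, JR1 shSCR and JR1 shSKP2 they were at 8.89, 4.49, 5.46 and 2.90 TPM (E2F5) and 9.39, 6.64, 7.48 and 4.66 TPM (E2F6). With them counted, these shares would be lower.

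Summed TPM of RB1, RBL1 and RBL2 was 27.5 in RD shSCR, 13.0 in RD shSKP2, 16.2 in JR1 shSCR and 9.41 in JR1 shSKP2. The 6 E2F members, without E2F5 and E2F6, summed to 125.3, 84.9, 75.8 and 59.8 TPM. This E2F sum thus exceeded the pocket protein sum 4.55 times in RD shSCR and 6.54 times in RD shSKP2, and 4.69 times in JR1 shSCR and 6.35 times in JR1 shSKP2. The ratio was close between the lines in each condition and higher in both knockdown libraries. RBL2 made up 44.0% of the pocket protein transcripts in RD shSCR and 29.9% in RD shSKP2, and 57.8% in JR1 shSCR and 38.3% in JR1 shSKP2. It led the pocket proteins in both control libraries, came last in RD shSKP2 at 3.88 TPM, after RBL1 (4.77) and RB1 (4.33), and stayed first in JR1 shSKP2 at 3.60 TPM, just above RB1 (3.25). With 1 library each there is no spread by which to judge the order of such neighbours.

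**Figure D4:**
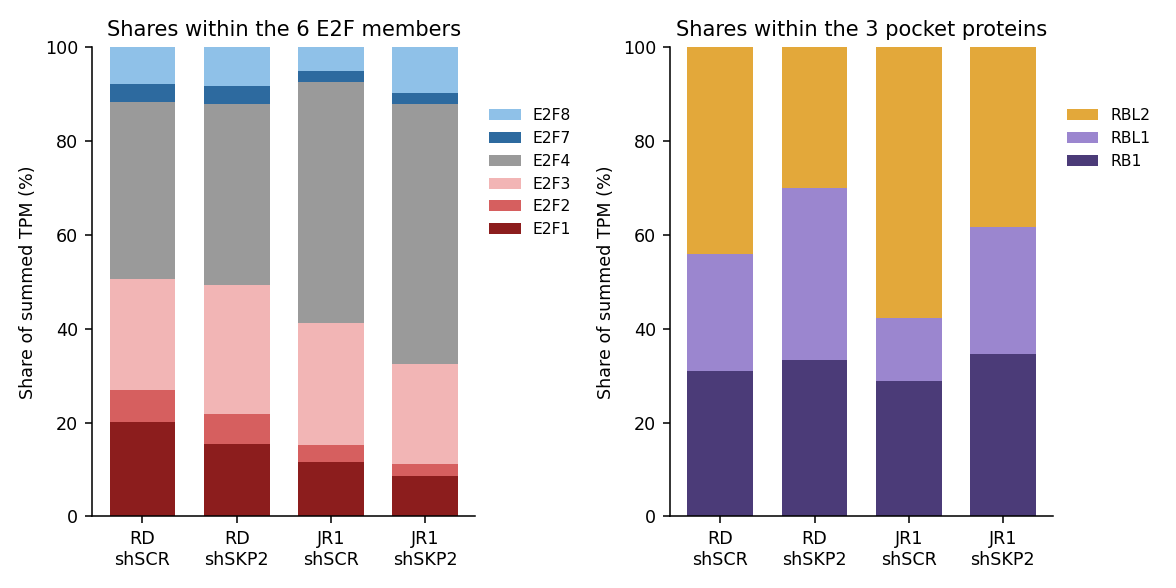
Share of summed TPM (%) held by each of the 6 E2F transcripts (left) and each of the 3 pocket protein transcripts (right) in the 4 libraries. E2F4 takes 37.8% and 38.5% of the sum of these 6 in RD and 51.3% and 55.5% in JR1, and the RBL2 share is lower after knockdown in both lines (44.0% to 29.9% and 57.8% to 38.3%).

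Genes that E2Fs are known to activate were looked up from 4 lists with 35 members in all. On knockdown 11 of 35 fell and 0 rose in RD (median -0.84, centred -0.57, rescaled -0.45), and 9 of 35 fell and 0 rose in JR1 (median -0.63, centred -0.41, rescaled -0.39). The counts that fell depended on the scaling, more so in RD, with 5 of 35 when centred and 3 when rescaled in RD, and 7 and 8 in JR1, where 7.37% and 9.05% of all tested genes fell with deposited TPM. The replication genes had 4 of 15 that fell in RD (median -0.84) and 3 of 15 in JR1 (median -0.57), and the nucleotide synthesis genes 3 of 5 in each line (medians -1.13 and -1.03). The chromatin and repair genes had 3 of 9 in RD (median -0.90) and 2 of 9 in JR1 (median -0.54), and the cyclin and checkpoint genes 1 of 6 in each (medians -0.45 and -0.34). The lowest in both lines was GINS1, a subunit of the replicative helicase complex, at -2.27 in RD and -1.91 in JR1. HELLS, a chromatin remodeler (-1.12 and -1.38), was the lowest of the chromatin and repair genes in both lines, and WEE1, the kinase that holds CDK1 inactive (just past the limit in RD and -1.25 in JR1), of the cyclin and checkpoint genes. TK1, an enzyme of nucleotide synthesis, was the lowest of its list in JR1 (-1.38). CCNE1, encoding the cyclin E1 that drives G1 to S passage, was alone above 0 in RD, at 0.32 (1 of 3 such genes when rescaled), and was at -0.35 in JR1. Among E2F target genes with a promoter window, 18 of 28 (64.3%) held one of the 4 words.

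Between the lines, 23 of the 35 targets were higher in RD by at least 1 in control cells (median 1.09), a count of 13 when centred or rescaled, and 15 after knockdown (median 0.93), a count of 10 when centred and 15 when rescaled. With deposited TPM, 6.5% of all tested genes were higher by as much in control cells (median 0.23) and 5.39% after knockdown (median 0.17). When centred, 96.1% of all tested genes lay below 0.99 in control cells and 96.5% below 1.00 after knockdown. All 35 targets were above 0 in both conditions, and 34 and 35 when rescaled. The activators E2F1 (1.43 and 1.22) and E2F2 (1.35 and 1.30) lay above the medians of the targets, and E2F4 (0.28 and -0.02) lay below them.

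The RB kinases and cyclins moved unevenly. CCND1, encoding cyclin D1, fell by 1.68 in RD and by 1.82 in JR1 on the log2 scale, and CDK2, the partner of cyclins E and A, fell by 1.52 and 1.66. CCND2 fell in JR1 (-1.03) and was at -0.29 in RD, which turned to 0.13 when rescaled, and CDK6, a partner of D cyclins, was the highest of the list at 0.38 and 0.49. In all 2 of 9 fell in RD (median -0.38) and 3 of 9 in JR1 (median -0.35), and 0 rose. Of all tested genes 7.37% fell and 1.08% rose in RD, and 9.05% fell and 1.78% rose in JR1. Of 7 CDK inhibitors, CDKN1A, encoding p21, rose in RD (1.15) and was at 0.78 in JR1, and passed the limit in both lines when rescaled (1.57 and 1.05), while CDKN2C, encoding p18, fell in RD (-1.02) and was at -0.64 in JR1. No other inhibitor of the list passed the limit in either line, and the list medians of -0.24 and -0.21 turned to 0.17 and 0.04 when rescaled. These lay near the rescaled medians of all tested genes, 0.12 in RD and 0.01 in JR1.

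The MuvB proteins join p107 or p130 and E2F4 in the repressive DREAM complex, and join B-MYB and FOXM1 when G2/M genes are switched on. Of all tested genes 7.37% fell in RD and 9.05% in JR1. Near those shares, 1 of 8 genes for the MuvB complexes fell in each line, MYBL2, which encodes B-MYB (-1.18 in RD and -1.15 in JR1). In this list 0 rose, and the medians were -0.40 and -0.34. DYRK1A, encoding the kinase that promotes DREAM assembly, was the highest at -0.15 in RD, which turned to 0.26 when rescaled, and 0.26 in JR1. Of 12 G2/M genes bound by MuvB complexes 2 fell in RD (median -0.66) and 6 in JR1 (median -1.01), with CDK1 lowest in both (-1.18 and -1.46). When rescaled 0 of 12 were past the limit in RD (median -0.25) and 3 of 12 in JR1 (median -0.79), and when centred 0 and 2. The centred shares of all tested genes near the limit were 3.53% in RD and 5.58% in JR1. Of 10 corepressors that pocket proteins recruit, 1 fell in each line, again near the share of all tested genes. It was RBBP7 (-1.27 and -1.02), a histone-binding subunit. The list median was -0.13 in RD and -0.01 in JR1, which turned to 0.27 and 0.25 when rescaled. Of the other E2F and DP genes none passed the limit, with E2F5, another pocket-bound repressor, lowest at -0.85 and -0.73 and TFDP2 highest at 0.36 and 0.51 (medians -0.44 and -0.58). When rescaled, CCND1 (-1.30 and -1.59) and CDK2 (-1.15 and -1.52) stayed past the limit in both lines, while MYBL2 (-0.77 and -0.92), RBBP7 (-0.88 and -0.80), CDKN2C in RD (-0.62) and CCND2 in JR1 (-0.77) did not.

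**Figure D5:**
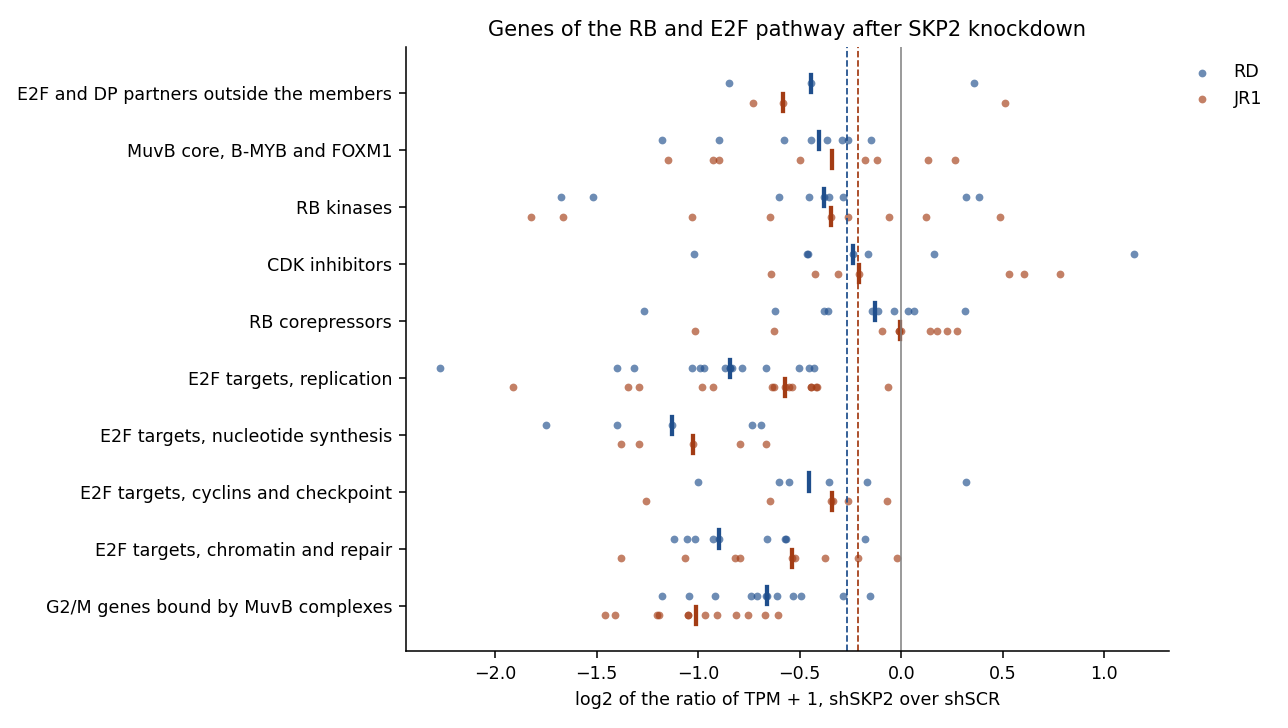
Log2 of the ratio of TPM + 1, shSKP2 over shSCR, for each gene (points) of 10 lists of the RB and E2F pathway in RD and JR1, with list medians as vertical bars, dashed lines at the median of all tested genes of each line and a gray line at 0. The nucleotide synthesis targets have the lowest median in both lines (-1.13 and -1.03), and the corepressor medians (-0.13 and -0.01) lie to the right of the dashed lines.

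Transcripts of E2F1, E2F2, RBL1, E2F7 and E2F8 are known to follow the cell cycle, and markers of cycling cells moved with the comparisons. The summed TPM of MKI67, TOP2A, CDK1, CCNB1 and CENPF was 217 in RD shSCR, 133 in RD shSKP2, 86.7 in JR1 shSCR and 40.8 in JR1 shSKP2. These markers all belong to the G2/M list above, so they are not a separate reading. All 5 markers were at or above 1 TPM in every library, and their median was -0.61 on knockdown in RD (centred -0.34, rescaled -0.20, with CENPF turned above 0) and -0.97 in JR1 (centred -0.75, rescaled -0.74). RD was above JR1 by a median of 1.38 in control cells (rescaled 1.14) and 1.70 after knockdown (rescaled 1.68). The libraries rank by this sum as they do by E2F1 and E2F2, and in JR1 E2F8 (0.49) and RBL1 (0.17) had values above 0 where the sum was lower. The part of the share of cycling cells in any difference given above was not tested.

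The genes whose patterns over the 4 libraries were nearest to those of E2F1, E2F8 and RBL2 were found among 8955 genes averaging 5 TPM or more, by the Euclidean distance between log2(TPM + 1) values centred on each gene's mean. Nearest to E2F1 were RASGRF2 (distance 0.105), CDKN2C (0.113) and SNORD134 (0.127). E2F8 was nearest to HADH (0.124), UBL4A (0.143) and MLIP (0.153). HADH, as an example, was at 14.1, 9.17, 5.85 and 7.82 TPM in RD shSCR, RD shSKP2, JR1 shSCR and JR1 shSKP2. RBL2 was nearest to FAM86B1 (0.0336), BLOC1S1 (0.0790) and KAZALD1 (0.0818), which fell by 1.41, 1.44 and 1.41 in RD on the log2 scale. With 4 libraries, small distances arise for many genes, and directions of change shared with the member follow from the way these genes were chosen.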

How the data were processed

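Directional libraries of poly-A RNA were made by the authors, who mapped the paired reads to GRCh38 (STAR 2.7.9a) and let RSEM 1.3.2 estimate the TPM. The deposited values are TPM with 2 decimals that sum to about 1e+06 per library, with no filter or pooling stated. Reads per gene are not given, so depth and counting error are unknown, and the number of libraries alone limits precision.

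From these TPM, log2((TPM + 1)/(TPM + 1)) was computed for shSKP2 over shSCR in each line and for RD over JR1 in each condition, over the 12985 genes averaging 1 TPM or more, with a limit of 1 for a changed gene. No test was run because each line and condition has 1 library. Alternatives were a pseudocount of 0.1 TPM, centring on the median of tested genes, removal of 1074 structural RNA genes by symbol with rescaling (15216 genes tested), no filter, a minimum of 5 TPM and a limit of 1.5-fold, and for the balance of activators and repressors other choices of repressors and a difference of mean logs. The naming rule took all members, SKP2, the highest and lowest genes of 10 pathway lists (81 genes) in each line, and the 3 genes nearest to E2F1, E2F8 and RBL2. One item under this rule is not reported here. CCND2, E2F6, the myogenic markers PAX7, DES and CHRNA1, list genes of opposite sign in the lines and overlapping genes were named after their values were seen. The members and lists were chosen with earlier results of these data known. Gene positions and promoter windows came from RefSeq tables on GRCh38.p14. A window was used if its start lay within 2000 bases of the gene's. The computation was tested on simulated data. The software was numpy 2.4.6, pandas 2.3.3 and matplotlib 3.10.9 under Python 3.11.15.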

Additional observations from a re-analysis of the deposited data

Results flagged for a closer look

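Knockdown values were of opposite sign in RD and JR1 for 11 genes, 3 of the 10 members and 8 of the 81 list genes. With 1 library each, the differences were not tested. The share of all tested genes with opposite signs was not computed, so the count is not a result about these genes. Some values were near 0, as for SIN3B (0.03 in RD and -0.01 in JR1). The JR1 value minus the RD value on the log2 scale was 0.94 for E2F8 (-0.45 in RD and 0.49 in JR1), 0.62 for RBL1 (-0.45 and 0.17) and 0.24 for TFDP1 (-0.23 and 0.01). Among the CDK inhibitors and RB kinases it was 0.99 for CDKN1C, which encodes p57 (-0.46 and 0.53), 0.58 for CCND3 (-0.46 and 0.12) and -0.66 for CCNE1 (0.32 and -0.35). For the MuvB genes LIN52 and DYRK1A it was 0.57 and 0.41, and for the corepressors KDM5A, HDAC1 and SIN3B it was 0.29, 0.18 and -0.0446. After rescaling 6 of the 11 kept opposite signs, namely E2F8 (-0.08 and 0.80), RBL1 (-0.10 and 0.45), CDKN1C (-0.16 and 0.88), CCND3 (-0.04 and 0.38), CCNE1 (0.74 and -0.12) and LIN52 (-0.08 and 0.40).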

How the results depend on the processing

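The count of members past the limit on knockdown was 1 in RD and 1 in JR1. It was 3 in each line with a limit of 1.5-fold (RB1, RBL2 and E2F1 in RD, and RBL2, E2F1 and E2F3 in JR1) and 0 in JR1 when centred. Close to the 1.5-fold limit, 23.6% of the tested genes lay below -0.58 in RD and 22.6% below -0.60 in JR1. A share of 3 in 10 is thus not far from that background. The count for RD over JR1 in control cells went from 5 to 3 when centred or rescaled and to 2 with a minimum of 5 TPM, which leaves fewer members tested. After knockdown it went from 2 to 1 with that minimum and to 5 with the limit of 1.5-fold. Near that limit, 84.2% of the tested genes lay below 0.59 for RD over JR1 after knockdown. The log2 balance of activators over atypical repressors was 2.13 in RD shSCR, 2.03 in RD shSKP2, 2.48 in JR1 shSCR and 1.43 in JR1 shSKP2. With E2F4 added to the repressors it was 0.0378, -0.034, -0.51 and -1.05, and as a difference of mean logs 1.34, 1.15, 1.32 and 0.58. With E2F7 alone, chosen after seeing the data, it was 3.78, 3.65, 4.16 and 3.79, and with E2F8 alone, likewise, 2.69, 2.59, 3.02 and 1.75. Its knockdown change was below 0 in both lines under all of these. Over the pseudocounts and scalings, the sign was kept by 8 of 10 members on knockdown in RD, 8 in JR1, 9 for RD over JR1 in control cells and 9 after knockdown. Each knockdown value is already a difference within a line. A fit with the line as a block, which would treat RD and JR1 as replicates of each other, was not run. TPM give no depth, so it cannot be said how small a difference these libraries could show.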
